A study of Mus musculus with 6 samples.

Results

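Antiviral interferon-stimulated genes (ISGs) were followed as a list of 35 mouse symbols, from the IFIT, ISG15 and OAS families to RNA sensors, restriction factors and their regulators. The genes were taken by name from a list drawn up with earlier results of these data known, and 34 of the 35 symbols had a row among the 32285 genes counted. Mx1 was not analysed here. The cells were sorted as CD45+ CD3+ CD8+ Tomato+ from tumors and tumor-draining lymph nodes (LN) of mice engrafted with B16-OVA, a mouse melanoma line that carries ovalbumin. CD8-IFNγRKO mice had the genotype CD8-Cre IFNgR1flox/flox Rosa26Tomato, so that Ifngr1, which encodes the receptor chain that binds IFNγ, was floxed, and control mice had CD8-Cre Rosa26Tomato. Both genotypes thus carried the Cre and the Tomato reporter, the Cre was active in CD8 T cells only, and the other cells of the tumor and LN kept the receptor. Cells of 3 mice per genotype were pooled at day 12 into a single library of 5′ transcript ends for each genotype and tissue, which gave 4 libraries. No age was taken from the labels. Tumors were digested with enzymes and LN were not, so that tissue and preparation cannot be told apart.

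Type I interferon binds the IFNAR receptor and activates transcription factors that bind the interferon-stimulated response element (ISRE) in front of antiviral genes. IFNγ binds the receptor of IFNGR1 and IFNGR2, and its signal acts on the gamma-activated sequence (GAS) and induces IRF1. Many antiviral genes answer to both, with type I interferon the stronger inducer of most, while genes such as the guanylate-binding proteins and the immunity-related GTPases lean to IFNγ. In T cells, type I interferon can promote or restrain division and survival, depending on when it is sensed relative to antigen.

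The promoters of several members are shown because the response element that ties these genes to interferon can be read in them. RefSeq promoter windows (GRCm38.p6) were given for 27 of the 34 genes and were searched in the 250 bases before the start site, on both strands, for the ISRE core, GAAA and GAAA with any 2 bases between them, and for the GAS core, TTC and GAA with any 3 bases between them. Usp18, Oas2, Rtp4, Dhx58, Zbp1, Parp9 and Parp14 had no window. In the 60-base stretches below, given 5′ to 3′ on the strand of the gene, capitals mark the ISRE core or its reverse complement.
Ifit1, chr19:34640779-34640838, plus strand: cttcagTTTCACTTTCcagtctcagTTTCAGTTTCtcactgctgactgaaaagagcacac
Ifit3, chr19:34583382-34583441, plus strand: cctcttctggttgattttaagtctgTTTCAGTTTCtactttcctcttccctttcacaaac
Ifit3b, chr19:34607778-34607837, plus strand: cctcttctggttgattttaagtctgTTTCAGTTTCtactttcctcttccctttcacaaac
Isg15, chr4:156200850-156200909, minus strand: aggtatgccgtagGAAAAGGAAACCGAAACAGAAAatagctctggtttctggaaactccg
Rsad2, chr12:26456538-26456597, minus strand: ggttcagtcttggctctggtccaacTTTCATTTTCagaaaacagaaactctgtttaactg
Oas1a, chr5:120907526-120907585, minus strand: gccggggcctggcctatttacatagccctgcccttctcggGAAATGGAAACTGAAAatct
Bst2, chr8:71537562-71537621, minus strand: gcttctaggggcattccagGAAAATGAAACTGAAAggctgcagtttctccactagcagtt
Ifi208, chr1:173673582-173673641, plus strand: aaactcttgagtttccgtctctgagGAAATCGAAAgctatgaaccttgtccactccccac

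The same 60 bases stood in front of Ifit3 and Ifit3b, and 2 overlapping cores made the longer capitals of Oas1a and Bst2, and 3 those of Isg15. Of the 27 members with a window, 13 (48.1%) held an ISRE core, against 936 of 27025 genes with a window (3.46%). GAS cores were found in 5 of the 27 members (18.5%) against 2197 of all genes (8.13%), and Oas1a and Bst2 were the 2 members with both. Of the 15 genes with a window on a list of targets that lean to IFNγ, 9 held an ISRE core (60%) and 6 a GAS core (40%). A match describes the letters only and is no evidence that a factor was bound.

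After the cell filters, the tumor libraries held 7101 control and 8634 CD8-IFNγRKO cells and the LN libraries 6641 and 6731, with 28841136 to 93969472 UMIs (unique molecular identifiers, each of which stands for a captured RNA molecule) a library. These cells were kept from 11369 control and 12214 CD8-IFNγRKO barcodes in tumors and from 12979 and 11298 in LN. A level is given as CPM, the UMIs of a gene scaled to a library total of 1000000, not divided by transcript length, since each molecule is counted once at its 5′ end. Medians were 6306 UMIs per control and 9399 per CD8-IFNγRKO tumor cell, and 4051 and 3863 in LN. The 7 CD8 T cell markers were detected in every library and summed to 5358 to 8749 CPM, while 9 macrophage markers summed to 2.81 to 18.1 CPM and 8 dendritic cell markers to 0.589 to 10.6 CPM, and any pair of libraries shared 51 to 82 barcodes. Ifngr1 stood at 718 CPM in control and 238 CPM in CD8-IFNγRKO tumors, against 182 and 137 CPM in LN, and the counted 5′ ends can lie outside the deleted part. Each group was 1 library, so no test between groups was possible. Intervals are exact 95% intervals and cover counting error only, not the spread between mice.

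The 34 genes together took 1475 CPM (1465 to 1485) of the control tumor library, 1819 CPM (1810 to 1828) of the CD8-IFNγRKO tumor library, 1294 CPM (1281 to 1307) of control LN and 1338 CPM (1325 to 1352) of CD8-IFNγRKO LN. Their summed level was thus higher in CD8-IFNγRKO than in control tumors, by a log2 ratio of 0.30 (0.29 to 0.31), and near equal between the genotypes in LN, with 0.05 (0.03 to 0.07). Bst2, Zbp1, Isg15, Ifi35 and Isg20 held 46.1% of the members' UMIs in control and 47.7% in CD8-IFNγRKO tumors. In LN, Ifi208 joined Bst2, Isg15 and Ifi35 among the leading genes, and it ranked the highest of all in CD8-IFNγRKO LN. At the other end, 4 members had under 100 UMIs in control tumors and Ifi44 stood near or below 1 CPM everywhere. A pooled level cannot separate more cells that express a gene from more RNA per cell, and single cells are taken up further on.

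**Figure D1:**
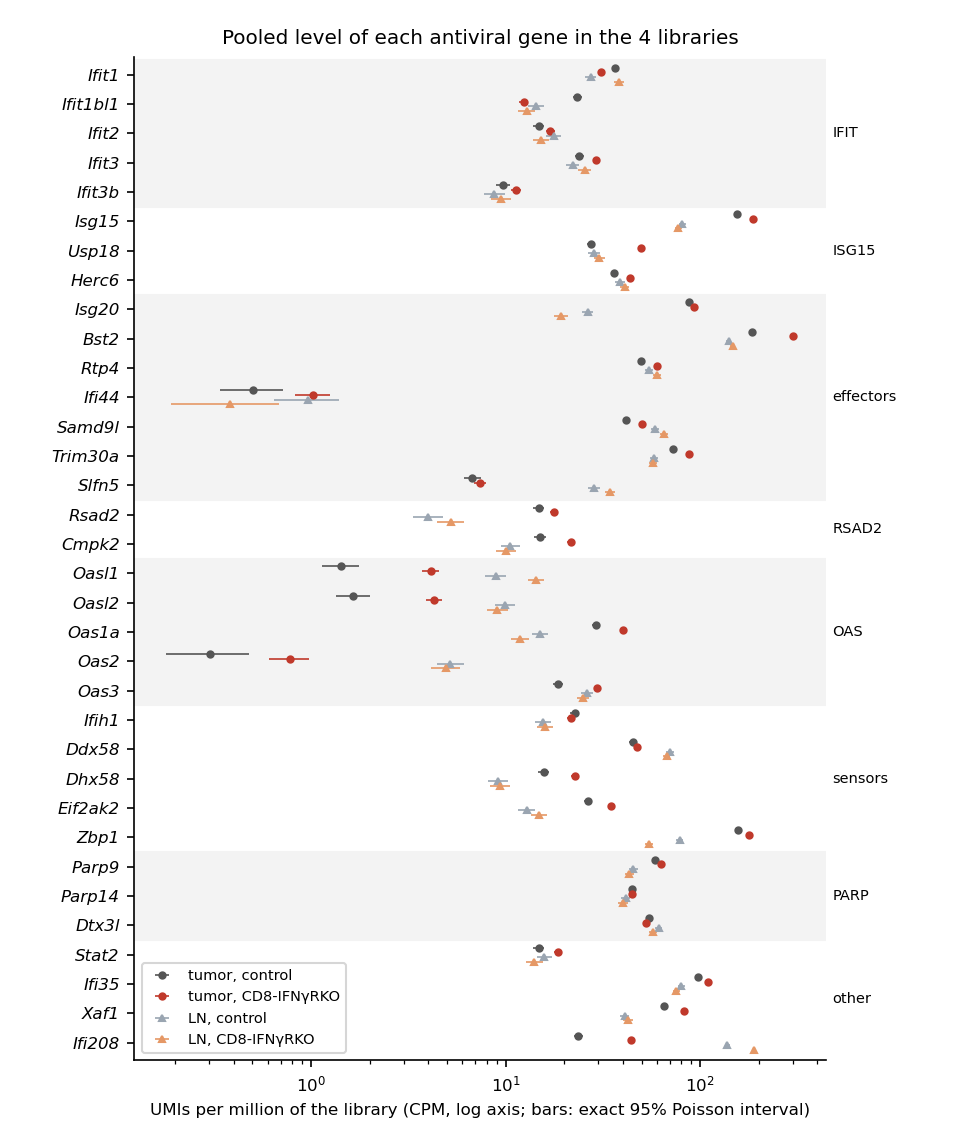
Level of each of the 34 genes in the 4 libraries, in CPM on a log axis, with genes in rows by role, circles for tumor, triangles for LN and bars for exact 95% Poisson intervals. Most genes lie between 10 and 100 CPM, Bst2 of CD8-IFNγRKO tumors is the highest at 301 CPM, and Oasl1, Oasl2, Oas2, Slfn5 and Ifi208 lie to the left in tumors and to the right in LN.

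A member was counted as past the fold between genotypes when its log2 ratio of CPM, with 1 CPM added to both, reached 0.5 in either direction, among genes with at least 100 UMIs over both libraries. In tumors, 8 of the 33 members tested were higher past this fold in CD8-IFNγRKO cells, against 8.06% of the 11323 genes tested, and 1 was lower, against 5.81%. They were Oasl1, Oasl2, Ifi208, Usp18, Bst2, Oas3, Cmpk2 and Dhx58 on the higher side and Ifit1bl1 on the lower. With 5 CPM added in place of 1, Oasl2 (0.48), Cmpk2 (0.42) and Dhx58 (0.42) were within the fold and the log2 ratio of Oasl1 was 0.51, so that 6 members were past it. Above 0 lay 29 of the 33, beside 5948 of the 11323 genes, and the median log2 ratio was 0.27, beside 0.02 over all genes tested. In LN, 1 member of 33 was higher past the fold (Oasl1) and 1 lower (Zbp1), where 0.417% and 0.784% of 10080 genes were. The median was -0.01 there, beside 0.02 over all genes, and 16 of 33 members lay above 0, beside 5928 of the 10080 genes. Of the 32 members tested in both tissues, 6 (Ifit1, Ifit2, Isg20, Oas1a, Zbp1 and Ifi35) had counting intervals on opposite sides of 0 in tumors and LN, against 10.5% of 9781 genes.

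**Figure D2:**
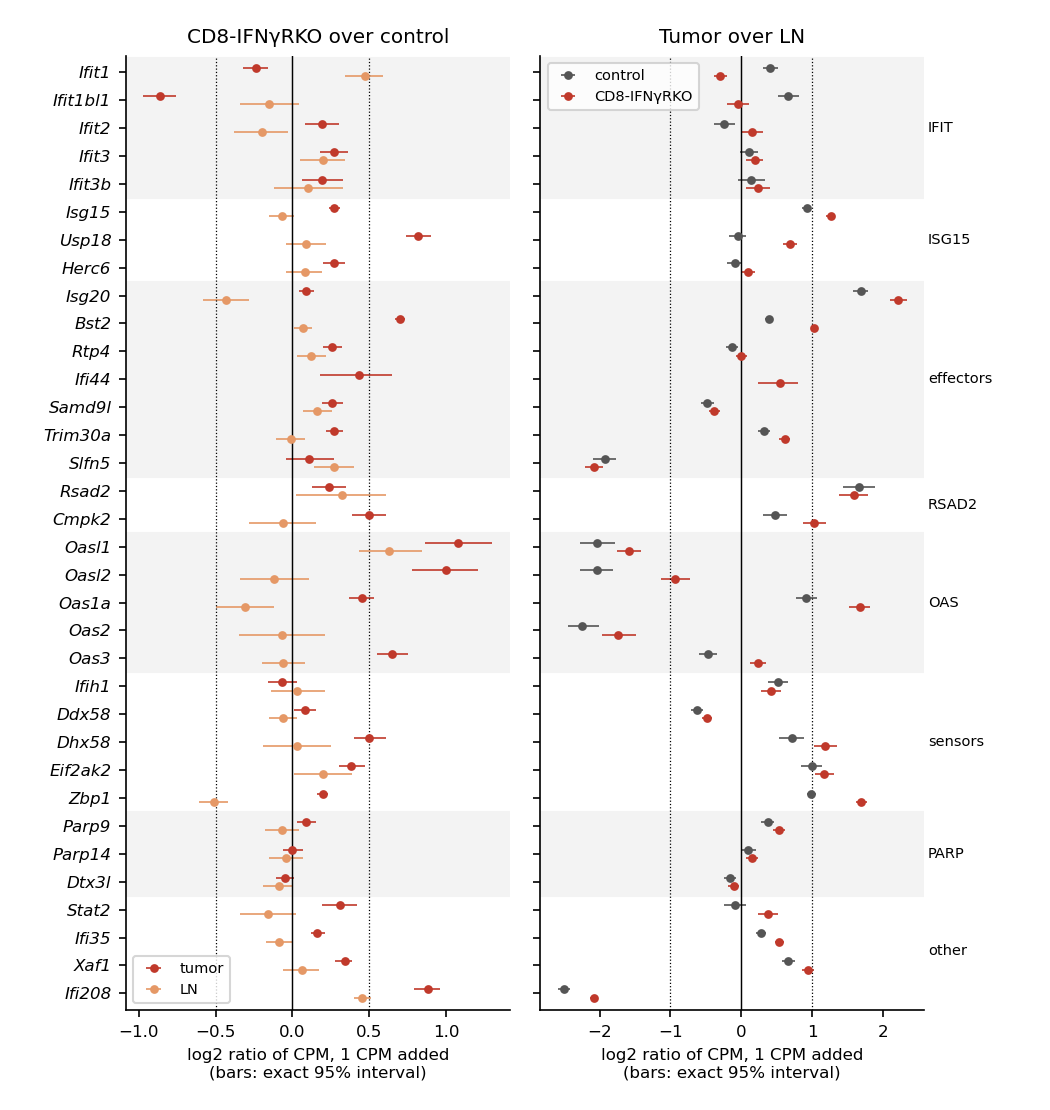
Log2 ratios of CPM with 1 CPM added and exact 95% intervals for each gene, CD8-IFNγRKO over control on the left and tumor over LN on the right, with dotted lines at the folds of 0.5 and 1. On the left, tumor points lie mostly right of 0 with Oasl1 farthest (1.08) and Ifit1bl1 at -0.86, while LN points lie around 0. On the right, Isg20 is farthest above 0 in both genotypes. Farthest below are Ifi208, Slfn5 and Oas2 in CD8-IFNγRKO cells, and Ifi208, Oas2, Oasl2 and Oasl1 in control cells.

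The IFIT genes encode proteins with tetratricopeptide repeats that bind viral RNA, IFIT1 that of messages without the cap methylation of the host. They were not higher in CD8-IFNγRKO tumors as a block. Ifit1 (ENSMUSG00000034459) stood at 36.6 CPM in control and 30.9 CPM in CD8-IFNγRKO tumors, while the LN libraries had 27.3 and 38.1 CPM. CD8-IFNγRKO cells were thus lower than control cells in tumors, with a log2 ratio of -0.24 (-0.32 to -0.16), and higher in LN, with 0.47 (0.34 to 0.59). Ifit1bl1, a rodent relative of Ifit1, read 23.3 CPM in control tumors and 12.4, 14.4 and 12.9 CPM in CD8-IFNγRKO tumors, control LN and CD8-IFNγRKO LN. The control tumor library was the high one, and the tumor log2 ratio of -0.86 (-0.97 to -0.76) was the lowest of the members. Ifit3 read 23.95 and 29.1 CPM in control and CD8-IFNγRKO tumors and 22.1 and 25.5 CPM in LN, with log2 ratios of 0.27 (0.18 to 0.36) and 0.20 (0.05 to 0.34). Ifit3b and Ifit2, at 8.75 to 17.7 CPM, had tumor ratios of 0.19 each. Summed over the 5 genes, IFIT levels were 108.5 CPM in control and 100.6 CPM in CD8-IFNγRKO tumors, a log2 ratio of -0.11 (-0.15 to -0.06), the only one of the 8 groups below 0 in tumors. Ifit3 and Ifit3b are near-identical copies, the annotated span of Ifit1bl1 (chr19:34592888-34662981) holds that of Ifit1 (chr19:34640889-34650009), and how reads were split between such genes is uncertain.

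The ISG15 pathway attaches the ubiquitin-like protein ISG15 to other proteins, with HERC6 as the main ligase of the mouse and USP18 as the enzyme that removes it and also restrains signaling from IFNAR. Isg15 stood at 154 CPM in control and 186 CPM in CD8-IFNγRKO tumors, and at 81.0 and 77.0 CPM in LN. The tumors were the high libraries of both genotypes, and between genotypes the log2 ratio was 0.27 (0.24 to 0.31) in tumors and -0.07 (-0.15 to 0.01) in LN. Usp18 stood out by genotype, at 49.4 CPM in CD8-IFNγRKO tumors against 27.5 CPM in control tumors and 28.5 and 30.4 CPM in LN. Its log2 ratio in tumors was 0.82 (0.74 to 0.90) and in LN 0.09 (-0.04 to 0.22). Herc6 read 36.2 and 43.8 CPM in tumors against 38.7 and 40.9 CPM in LN, a ratio of 0.27 (0.20 to 0.34) in tumors.

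Rsad2 encodes viperin, which turns CTP into a chain terminator of viral polymerases, and its neighbour Cmpk2 a mitochondrial nucleotide kinase. They lie next to each other, at chr12:26442743-26456452 and chr12:26469117-26479837. Rsad2 stood at 14.8 CPM in control and 17.7 CPM in CD8-IFNγRKO tumors, against 4.01 and 5.24 CPM in LN. Tumor cells were high in both genotypes, with tumor over LN log2 ratios of 1.66 (1.43 to 1.89) in control and 1.59 (1.38 to 1.79) in CD8-IFNγRKO cells. Cmpk2 read 15.04 and 21.7 CPM in tumors against 10.6 and 10.1 CPM in LN, and its genotype ratio in tumors was 0.50 (0.39 to 0.61).

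The OAS family makes 2′-5′ oligoadenylate on binding double-stranded RNA, which activates RNase L, and the OAS-like genes encode relatives of which OASL1 restrains translation of Irf7. As a group they had the highest genotype ratio in tumors, 51.0 CPM in control and 78.8 CPM in CD8-IFNγRKO cells, a log2 ratio of 0.62 (0.56 to 0.68), and stood at 65.1 and 65.3 CPM in LN. Oasl1 stood at 1.43 CPM in control tumors, 4.14 CPM in CD8-IFNγRKO tumors, 8.92 CPM in control LN and 14.4 CPM in CD8-IFNγRKO LN. CD8-IFNγRKO libraries were the higher ones in both tissues, by log2 ratios of 1.08 (0.86 to 1.30) in tumors and 0.63 (0.43 to 0.84) in LN. Oasl2 read 1.65 and 4.29 CPM in tumors, a ratio of 1.00 (0.78 to 1.21), and 9.92 and 9.08 CPM in LN. Oas3 stood at 18.5 and 29.6 CPM in tumors against 26.1 and 25.03 CPM in LN, with 0.65 (0.55 to 0.75) in tumors. Oas1a was higher in tumors, at 29.1 and 40.0 CPM against 15 and 11.9 CPM in LN. It has close relatives such as Oas1g, and how reads were split among them is uncertain. Oas2, at 0.303 and 0.777 CPM in tumors against 5.21 and 4.92 CPM in LN, had too few UMIs in tumors to be tested between genotypes.

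Among the sensors, Ifih1 (MDA5), Ddx58 (RIG-I) and Dhx58 (LGP2) encode the helicases that recognise viral RNA in the cytosol, Eif2ak2 the kinase PKR that stops translation and Zbp1 a sensor of Z-form nucleic acid that can start cell death. Zbp1 was the highest of these genes in 3 of the 4 libraries, at 156 CPM in control and 179 CPM in CD8-IFNγRKO tumors and 78.3 and 54.6 CPM in LN. It was the 1 member lower past the fold in CD8-IFNγRKO LN, with a log2 ratio of -0.51 (-0.61 to -0.42), and lay at 0.20 (0.16 to 0.23) in tumors. Dhx58 read 15.7 and 22.6 CPM in tumors, a ratio of 0.50 (0.40 to 0.61), and 9.19 and 9.40 CPM in LN. Eif2ak2 read 26.5 and 34.8 CPM in tumors against 12.8 and 14.9 CPM in LN, with 0.38 (0.30 to 0.47) in tumors. The RNA helicases Ddx58 and Ifih1 differed little between genotypes, with tumor ratios of 0.08 (0.01 to 0.15) and -0.07 (-0.16 to 0.03), and Ddx58 was the 1 sensor below 0 between tissues, at 44.98 and 47.6 CPM in tumors against 70.0 and 67.2 CPM in LN.

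Parp9, Parp14 and Dtx3l encode ADP-ribosyltransferases and the ubiquitin ligase partner of PARP9, and the 3 genes lie side by side on chromosome 16. In tumors they were the group with the least difference between genotypes, 158 CPM in control and 160.3 CPM in CD8-IFNγRKO tumors, a log2 ratio of 0.02 (-0.02 to 0.06). In LN they stood at 147.9 and 140.7 CPM, a ratio of -0.07 (-0.13 to -0.01). Single genes ranged from -0.05 (Dtx3l) to 0.09 (Parp9) in tumors.

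Of the effectors that act on entry, replication or release of viruses, Bst2 encodes tetherin, which holds budding virus at the cell surface. Bst2 stood at 185 CPM in control and 301 CPM in CD8-IFNγRKO tumors, against 141 and 147 CPM in LN. The CD8-IFNγRKO tumor library was the high one, with a log2 ratio of 0.70 (0.67 to 0.73) over control, and in LN the ratio was 0.07 (0.01 to 0.13). Isg20, an exonuclease, read 87.2 and 93.0 CPM in tumors against 26.4 and 19.4 CPM in LN, high in tumors of both genotypes. Slfn5, a Schlafen family gene that is high in quiescent T cells, had the opposite order, 6.75 and 7.39 CPM in tumors against 28.5 and 34.5 CPM in LN. Rtp4, Samd9l and Trim30a read 41.6 to 87.9 CPM and had tumor ratios of 0.26, 0.26 and 0.27. Ifi44, at 0.381 to 1.02 CPM, was the rarest of the group.

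The remaining members were Stat2, a factor of type I interferon signaling, Ifi35, Xaf1, which antagonises inhibitors of apoptosis, and Ifi208, of the PYHIN family of DNA sensors and regulators. Ifi208 stood at 23.6 CPM in control and 44.2 CPM in CD8-IFNγRKO tumors, against 138 and 190 CPM in LN. The CD8-IFNγRKO libraries were the higher in both tissues, with log2 ratios of 0.88 (0.79 to 0.96) in tumors and 0.45 (0.40 to 0.51) in LN. Ifi208 lies in a cluster of similar genes on chromosome 1, and the split of reads among them is uncertain, as it is for Trim30a and Trim30d. Stat2, Ifi35 and Xaf1 had tumor ratios of 0.31, 0.16 and 0.34.

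Between tissues a ratio of 1 on the log2 scale was used as the fold, and members lay past it in both directions. In control cells, 5 of 33 members were lower in tumors past this fold, against 11.7% of 10912 genes, and 2 were higher, against 16.4%. In CD8-IFNγRKO cells 4 of 34 were lower, against 12.9% of 11283 genes, and 9 higher, against 17.5%. The counts of lower members were thus near the shares of all genes. Ifi208, Slfn5, Oas2 and Oasl1 were lower in the tumors of both genotypes, with log2 ratios from -2.50 for Ifi208 in control cells to -1.58 for Oasl1 in CD8-IFNγRKO cells. Isg20 (1.69 and 2.21) and Rsad2 were the 2 members higher in both. Zbp1, Oas1a, Isg15, Dhx58, Eif2ak2, Cmpk2 and Bst2 were past the fold in CD8-IFNγRKO cells, at 1.03 to 1.69, and within it in control cells, at 0.39 to 0.99. These comparisons of tissues are not independent of those of genotypes, since they rest on the same libraries.

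The summed level was higher in tumor than in LN, with log2 ratios of 0.19 (0.17 to 0.21) in control and 0.44 (0.43 to 0.46) in CD8-IFNγRKO cells. The direction in control cells depended on the scaling. With library sizes taken without T cell receptor, heat shock, ribosomal protein and mitochondrial genes, the control ratio was -0.10 and the CD8-IFNγRKO ratio 0.18, and the median of all genes moved to -0.26 and -0.22. Scaled by TMM factors, which trim extreme genes, the 2 ratios were 0.28 and 0.55 and the medians 0.09 and 0.13. Among the 8 groups of members, 3 in control and 2 in CD8-IFNγRKO cells had a sign between tissues that turned with the scaling, the IFIT and PARP groups in both and the effectors in control cells. Between genotypes, none turned in tumors, and the ISG15 and OAS groups, at 0.00, turned in LN. The split of members past the tissue fold changed too, to 5 lower and 5 higher in CD8-IFNγRKO cells without those genes in the library size, and to 5 and 5 in control cells with TMM factors.

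Other genes of the interferon pathway, on lists of gene names, gave a scale for these values. Of all 11323 genes tested in tumors, 5.81% were lower past the fold of 0.5 in CD8-IFNγRKO cells and 8.06% higher. In LN these shares were 0.784% and 0.417% of 10080 genes. Among 21 targets that lean to IFNγ, 6 of 20 tested were lower past the fold of 0.5 in CD8-IFNγRKO tumors and 0 higher, with a median log2 ratio of -0.28, while in LN 6 of 19 were lower and 0 higher, with a median of -0.36. Irf1 (-0.74), Iigp1 (-0.71), Cd274 (-0.59), Irgm2 (-0.53), Cxcl9 (-0.53) and Igtp (-0.52) were those lower in tumors. Cxcl9 rested on 63 UMIs in control and 40 in CD8-IFNγRKO tumors. Its levels of 1.06 and 0.426 CPM were near or below the 1 CPM added. The members and the genes that lean to IFNγ thus lay mostly on different sides of 0 in tumors, 29 of 33 above it and 16 of 20 below. Of all 11323 genes tested there, 5948 lay above 0 and 5375 below. Of 32 other antiviral ISGs found, 2 of 31 tested were higher past the fold in CD8-IFNγRKO tumors, near the 8.06% of all genes. They were Ifi27l2a (0.53) and Pnpt1 (0.51). None was lower past the fold, and the median was 0.10. In LN, 0 of 28 were past the fold in either direction, with a median of 0.04. Among 15 genes of interferon signaling, 2 of 14 tested were lower past the fold in CD8-IFNγRKO tumors, Ifngr1 (-1.59) and Ifnar1 (-0.76), and 1 higher, the DNA sensor Cgas (0.68). Ifnar1, a chain of the type I interferon receptor, read 86.1 CPM in control and 50.5 CPM in CD8-IFNγRKO tumors and 53.2 and 54.4 CPM in LN.

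Type I interferon genes themselves were rarely or never detected. Of 20 interferon genes, 17 had no UMI in any library, which allows up to 0.0319 CPM in CD8-IFNγRKO tumors and up to 0.104 CPM in CD8-IFNγRKO LN. Ifnb1 had 3 UMIs in CD8-IFNγRKO tumors and Ifnab 2 in control LN. Ifng, by contrast, stood at 474 CPM in control and 425 CPM in CD8-IFNγRKO tumors, against 12.0 and 10.4 CPM in LN.

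The spread over single cells was measured after each cell had been thinned at random to 1600 UMIs. Shallower cells were left out, 701 of control and 278 of CD8-IFNγRKO tumors and 237 and 41 of control and CD8-IFNγRKO LN. The median cell then carried 2 UMIs of the 34 genes in each of the 4 libraries, and the mean was 2.78 in control and 3.53 in CD8-IFNγRKO tumors and 2.10 and 2.19 in LN. The highest cells carried 48 and 64 UMIs in tumors and 33 and 40 in LN. The variance of the sum was 5.07 and 4.90 times its mean in tumors and 3.06 and 3.30 times in LN, where the variances of single genes added up without any covariation would give 1.17 to 1.42 times. The members thus varied together from cell to cell. Isg15 had the highest variance over mean of the single genes in all 4 libraries, at 1.96 to 2.64, ahead of Rsad2, Ifit3 and Ifit1 in control tumors. This measure can rise with the level of a gene, so it does not rank relative spread. In control tumors Isg15 had 1944 thinned UMIs, against 224 of Rsad2 and 386 of Ifit3. No sorted cell class that lacks these genes was at hand, so the part of free RNA in low sums was not measured.

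Cells with 10 or more member UMIs of 1600 were called high. They made up 4.44% (3.95 to 4.97) of control and 6.38% (5.86 to 6.92) of CD8-IFNγRKO tumor cells, and 1.89% (1.57 to 2.25) and 2.15% (1.82 to 2.53) of LN cells. In absolute numbers these were 284 and 533 tumor cells and 121 and 144 LN cells. High cells held 25.2% and 27.9% of the member UMIs of the tumors and 13.2% and 14.5% of those of LN, so that most member UMIs came from the other cells. In tumors, high cells were shallower, with medians of 4746 UMIs against 7059 in the other control cells and 5171 against 10058 in the other CD8-IFNγRKO cells, while in LN they were 4014 against 4108 and 3649 against 3875. The part of depth in these shares was not tested beyond the thinning, which left out more control than CD8-IFNγRKO tumor cells.

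**Figure D3:**
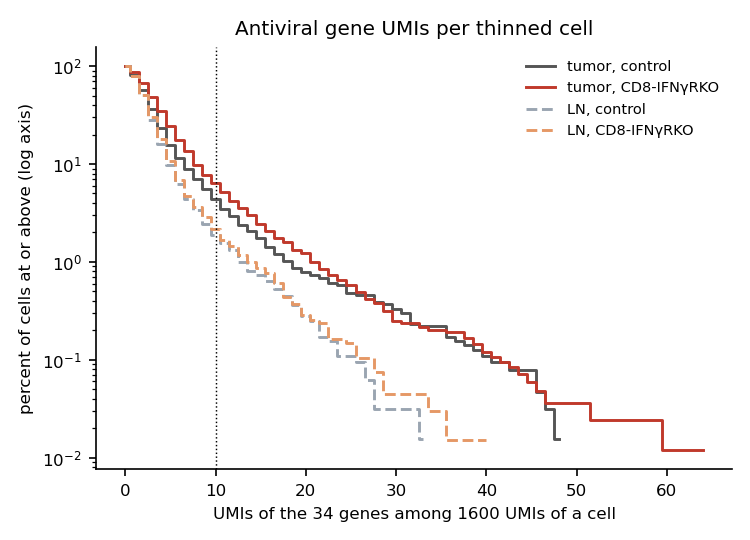
Percent of cells, on a log axis, at or above each number of member UMIs among 1600 UMIs of a cell, with solid lines for tumor, dashed lines for LN and a dotted line at 10 UMIs. The tumor lines lie above the LN lines throughout the tail, and the CD8-IFNγRKO tumor line crosses 10 UMIs at 6.38% and the control tumor line at 4.44%.

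The genotypes were also set side by side within each class of tumor cells. In cells under 10 UMIs, the summed members read 1579 CPM in CD8-IFNγRKO and 1285 CPM in control tumors, a log2 ratio of 0.30 (0.28 to 0.31). In high cells they read 7753 and 8251 CPM, a ratio of -0.09 (-0.12 to -0.06). Both classes were cut on the same sum that is compared, so these ratios are a description and do not place the difference in either class. Bst2 had 0.74 (0.70 to 0.77) in the lower class and 0.03 (-0.07 to 0.13) in high cells. Usp18, Oasl1, Oasl2 and Ifi208 were higher in CD8-IFNγRKO cells of both classes, with Ifi208 at 0.81 (0.72 to 0.91) and 0.69 (0.50 to 0.89), and Ifit1bl1 was lower in both, at -1.07 (-1.19 to -0.94) and -0.54 (-0.79 to -0.30).

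To see which genes were high in the same cells, each member was left out in turn, the cells were ranked by the thinned UMIs of the other 33, and its level in the top 5% was compared with that in the other cells of the same library. Every member with at least 100 UMIs, 30 and 32 in tumors and 33 in each LN library, was at least 1 log2 unit higher in the top cells, with intervals above 0. The median log2 ratio was 2.28 in control and 2.17 in CD8-IFNγRKO tumors and 2.06 and 2.17 in LN. Genes that are no members had medians of -0.07 to -0.01 in cells ranked by all 34, and 1.33% and 2.5% of them in tumors and 0.655% and 0.638% in LN were at least 1 log2 unit higher.

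Ifit3, Ifit3b, Rsad2 and Ifit1 were among the 5 members of highest contrast in each of the 4 libraries. Since the split of reads between Ifit3 and Ifit3b is uncertain, their 2 contrasts are not independent of each other. Ifit3 read 341 CPM in the top cells of control tumors and 13.5 CPM in the others, a log2 ratio of 4.56 (4.41 to 4.71), and 323 and 18.0 CPM in CD8-IFNγRKO tumors, a ratio of 4.09. Isg15 reached 1227 and 1206 CPM in the top cells of the tumors and 594 and 544 CPM in those of LN, with ratios of 3.01 in CD8-IFNγRKO tumors to 3.50 in control LN. Rsad2 had 4.50 and 3.89 in tumors and 3.68 and 4.55 in LN. At the other end, Samd9l (1.02 to 1.32), Ifi35 (1.06 to 1.60) and Dtx3l (1.13 to 1.54) were among the members that followed the others least in each library. Their level in the remaining cells was 39.5 CPM or more. Ddx58 was low in LN (1.34 and 1.17) and less so in tumors (1.89 and 1.87). Stat2 (1.05) in CD8-IFNγRKO LN and Ifi208 (1.09) in control LN were also low. Isg15 was also well expressed outside the top cells, with 115 and 149 CPM in the other cells of the tumors.

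The order of the genes was not the same in tumor and LN. Ifi208 had ratios of 2.80 and 2.86 in tumors and of 1.09 and 1.41 in LN, where the other cells already carried 130 and 175 CPM against 19.4 and 35.9 CPM in tumors. Ifit1bl1 had 2.44 and 3.38 in tumors and 1.62 and 1.60 in LN, and Ifit2 2.79 and 2.64 against 1.48 and 1.72. Slfn5 had 3.41 and 3.66 against 2.60 and 2.46. Usp18, Xaf1 and Oas3 lay close together in the 4 libraries, at 2.68 to 3.15, 1.68 to 2.12 and 2.13 to 2.40. Differences between libraries in this contrast were not tested.

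**Figure D4:**
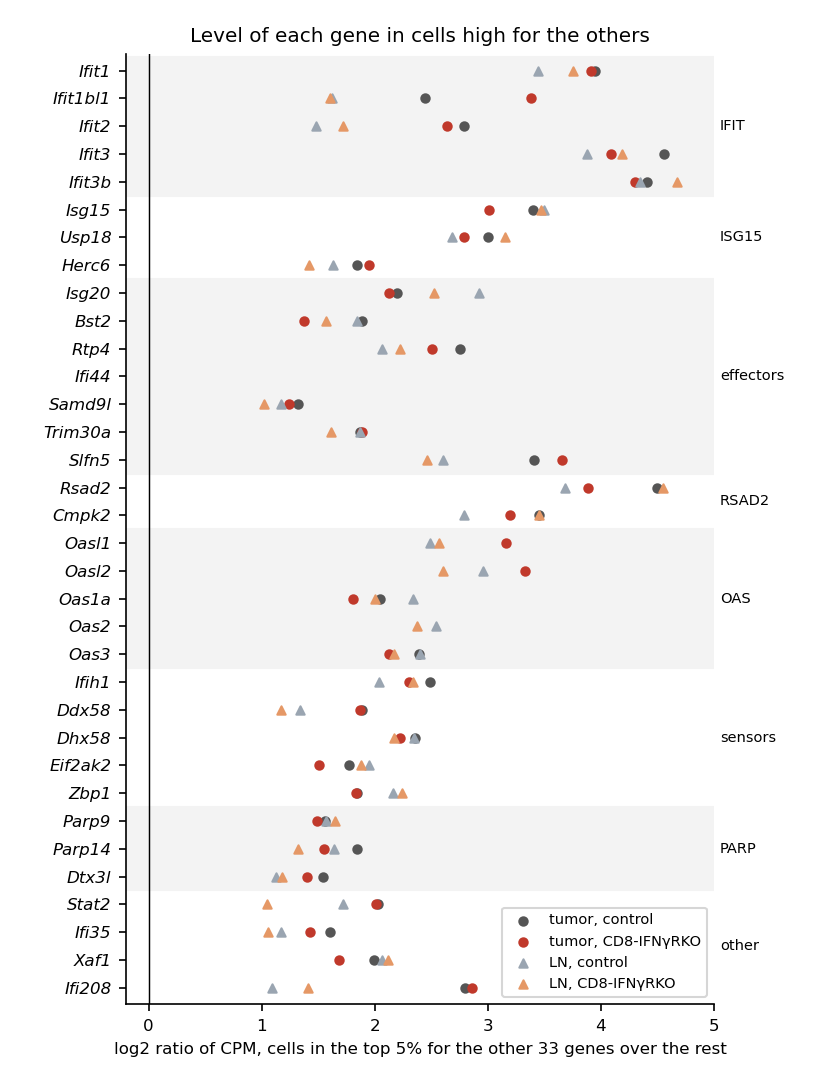
Log2 ratio of CPM, with 1 CPM added, of each gene in the 5% of cells highest for the other 33 genes over the remaining cells of the library, for genes with at least 100 UMIs, with circles for tumor and triangles for LN. Every point lies right of 1, and Ifit1, Ifit3, Ifit3b, Isg15 and Rsad2 reach 3 or more in all 4 libraries. Samd9l, Dtx3l and Ifi35 are among those closest to 1 in each library.

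Pairs of members told the same in another way. For each pair, the thinned cells with a UMI of both were counted and divided by the number that independence would give, for pairs with at least 5 expected cells. The median was 1.78 in control and 1.74 in CD8-IFNγRKO tumors and 1.63 and 1.64 in LN, and 403 of 403, 469 of 470, 364 of 372 and 371 of 381 pairs lay above 1. The highest was the Ifit1-Ifit3b pair in control tumors, with 55 cells against 6.21 expected (8.86 times). Ifit3-Ifit3b led in CD8-IFNγRKO tumors (7.12 times), Ifit3b-Isg15 in control LN (6.56 times) and Ifit1-Ifit3 in CD8-IFNγRKO LN (7.05 times). Ifit3 and Ifit3b are near-identical copies, and the part of read assignment in the value of their pair was not tested. The lowest was the Ifih1-Samd9l pair in CD8-IFNγRKO LN, with 7 cells against 14.4 expected (0.485 times). Pairs of the same role had medians of 1.63 and 1.69 in tumors and 1.62 and 1.52 in LN, against 1.80, 1.75, 1.63 and 1.67 for pairs of different roles. The median of pairs with a shared role was thus no higher, though the highest pair of both tumor libraries and of CD8-IFNγRKO LN joined IFIT genes. These medians leave out pairs of rarer genes, with under 5 expected cells. Pairs share genes and cells and are not independent of each other.

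Among 8737 genes outside the list with at least 100 UMIs in each library, those highest in the top 5% of cells by member sum were ranked by the smallest of their 4 log2 ratios. They were Irf7, A930037H05Rik, Pml, Phf11b, Phf11c, Parp12, Ddx60, AW011738, Trim30d and H2-T24. Irf7, the factor that amplifies type I interferon and its targets, read 533 CPM in the top cells of control tumors and 94.1 CPM in the others, 588 and 101 CPM in CD8-IFNγRKO tumors, 349 and 73.9 CPM in control LN and 353 and 79.2 CPM in CD8-IFNγRKO LN. Its log2 ratios were 2.49, 2.54, 2.22 and 2.14. Lowest were Hist1h1b, Hist1h1d, Zfp367, Pclaf and Hist1h2ao, of which the Hist1 genes encode histones and Pclaf belongs to DNA replication. Pclaf read 72.9 CPM in the top and 254 CPM in the other cells of control tumors and 238 and 437 CPM in CD8-IFNγRKO tumors.

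Markers of other cells in the top 5% were measured beside these values. CD8 T cell markers were at 9629 and 7945 CPM in the top cells of the tumors and at 8699 and 6562 CPM in the others. Macrophage markers were at 21.9 and 19 CPM in the top cells and 18.0 and 11.4 CPM in the others of control and CD8-IFNγRKO tumors. In LN they were at 0.527 and 15.9 CPM against 2.95 and 2.56 CPM. Single genes held most of these sums, Cd68 with 16.5 and 15 CPM in the top tumor cells. In the top cells of CD8-IFNγRKO LN it was Lyz2, with 13.3 CPM. Dendritic cell markers stood at 17.5 against 10.4 CPM in CD8-IFNγRKO tumors and at 8.75 against 8.54 CPM in control tumors. Itgax alone held 14.6 and 7.78 CPM of the top-cell sums of CD8-IFNγRKO and control tumors. Flt3, Clec9a, Cd209a and Batf3 had no UMI in these top cells, while Zbtb46 read 2.19 CPM and Xcr1 0.731 CPM in those of CD8-IFNγRKO tumors. Siglech, which marks plasmacytoid dendritic cells, was at 0 in all 4 libraries. The part of such cells in the member levels was not tested, and no barcodes were removed for dendritic cell markers. With barcodes removed at 3 or more macrophage markers, the genotype ratios were 0.30 in tumors and 0.05 in LN, and the share of high cells was 4.01% in control and 6.23% in CD8-IFNγRKO tumors.

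Tumor cells were next divided by a UMI of a marker gene among their 1600. Tcf7, which encodes TCF1 of stem-like T cells, was found in 202 control (3.16%) and 426 CD8-IFNγRKO (5.10%) tumor cells. High cells made up 9.41% (5.76 to 14.3) of control cells with Tcf7 and 4.28% (3.79 to 4.81) of those without it, and 17.4% (13.9 to 21.3) and 5.79% (5.28 to 6.32) in CD8-IFNγRKO tumors. The members' mean was 3.76 UMIs with and 2.74 without Tcf7 in control, and 5.74 and 3.41 in CD8-IFNγRKO cells. Cells with Tcf7 thus carried more member UMIs in both genotypes. Their genotype log2 ratio was 0.61 (0.49 to 0.73), and 0.31 (0.29 to 0.34) in cells without Tcf7. Since the members vary over cells beyond counting error, these intervals are too narrow to compare the 2 ratios, and their difference was not tested.

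By gene, 21 of 31 members with at least 100 thinned UMIs were higher in cells with Tcf7 of CD8-IFNγRKO tumors, with the interval above 0, against 14.1% of the 8193 genes tested, and 0 lower, against 21.3%. In control tumors, with fewer such cells, 8 of 30 were higher, against 9.23% of 7527 genes, and 1 (Isg20) lower, against 13.8%. These counts have a limit. The members varied together from cell to cell, so they do not count as independent genes, and their intervals are too narrow. Oasl2 had the highest log2 ratio, 57.2 CPM with and 5.83 CPM without Tcf7 in CD8-IFNγRKO tumors, or 3.09 (2.53 to 3.63), followed by Ifit3b (2.48), Slfn5 (1.94), Ifit3 (1.85) and Ifi208 (1.65). In control tumors Ifit3 had 1.67 (1.15 to 2.16), Ifit3b 1.53 and Ifi208 1.42. Dhx58, Ifih1, Oas1a and Eif2ak2 had intervals that held 0 in both genotypes. In LN, where 58.2% of control and 57.5% of CD8-IFNγRKO cells had a UMI of Tcf7, high cells made up 1.96% and 1.98% with it and 1.79% and 2.39% without it, with overlapping intervals.

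Mki67, a marker of dividing cells, gave the opposite order. High cells made up 1.97% (1.05 to 3.34) of control tumor cells with Mki67 and 4.72% (4.19 to 5.30) without it, and 3.15% (2.33 to 4.17) and 7.08% (6.48 to 7.71) in CD8-IFNγRKO tumors. Of the members tested, 15 of 30 and 18 of 31 had intervals below 0 in cells with Mki67, against 10.1% and 11.1% of all genes tested, and 0 above, against 14.1% and 13.5%. The limit given for the counts by Tcf7 holds for these counts as well. Slfn5 (-1.45 and -1.21) and Ifit1 (-0.86 and -1.31) were among the lowest.

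With Gzmb, the granzyme of effector cells, high cells made up 4.34% (3.82 to 4.91) with and 5.02% (3.70 to 6.64) without it in control tumors, with overlapping intervals, and 5.72% (5.20 to 6.27) and 10.9% (9.11 to 13.0) in CD8-IFNγRKO tumors. Between genotypes the members' log2 ratio was 0.30 (0.27 to 0.33) in cells with Gzmb and 0.63 (0.56 to 0.70) in those without. It was 0.50 (0.41 to 0.59) in cells with Mki67 and 0.36 (0.33 to 0.39) in those without. With and without Ifngr1 it was 0.45 (0.41 to 0.48) and 0.38 (0.33 to 0.42). Here too the intervals are too narrow to compare the ratios, and their differences were not tested. Cells with a UMI of Ifngr1 had the larger share of high cells in both genotypes. In CD8-IFNγRKO tumors it was 8.63% (7.63 to 9.72) with and 5.19% (4.62 to 5.81) without it. In control tumors the shares were 4.83% (4.21 to 5.51) and 3.58% (2.81 to 4.49). The control intervals overlapped, which does not show equal shares, and neither difference was tested. Pdcd1 and Havcr2 gave shares of 4.43% and 3.74% with and 4.45% and 4.81% without them in control tumors, and of 5.90% and 4.35% with and 7.04% and 7.11% without in CD8-IFNγRKO tumors.

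**Figure D5:**
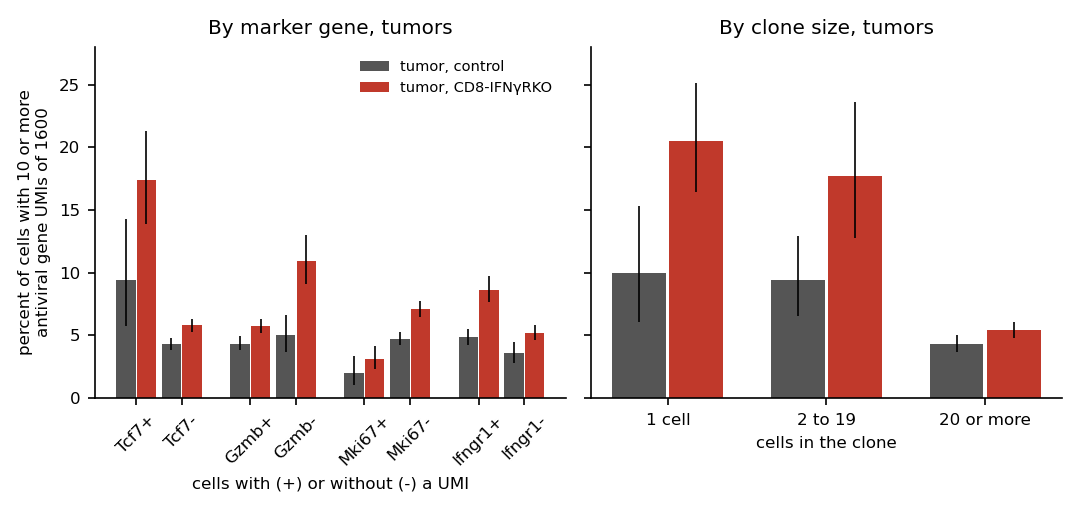
Percent of tumor cells with 10 or more member UMIs of 1600, for cells with or without a UMI of a marker gene on the left and by the size of the cell's clone on the right, with gray bars for control, red bars for CD8-IFNγRKO and lines for exact 95% binomial intervals. The share is highest in CD8-IFNγRKO cells with Tcf7 (17.4%) and in CD8-IFNγRKO clones of 1 cell (20.5%), and lowest in control cells with Mki67 (1.97%).

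T cell receptor contigs of the tumor libraries placed the high cells among clones. In control tumors, 10.0% (6.04 to 15.3) of cells in clones of 1 cell were high, 9.38% (6.54 to 12.9) in clones of 2 to 19 cells and 4.29% (3.66 to 4.99) in clones of 20 or more. In CD8-IFNγRKO tumors the shares were 20.5% (16.4 to 25.1), 17.7% (12.8 to 23.6) and 5.42% (4.82 to 6.06). Of the 3 sizes the large clones had the lowest share in both genotypes, cells with no clone assigned had 3.44% and 5.49%. The difference between the genotypes, each 1 library, was not tested. The 209 high control cells with a clone came from 59 clones and the 397 high CD8-IFNγRKO cells from 115, of 260 and 429 clones in all. Among clones of 20 or more cells, 22 in control and 25 in CD8-IFNγRKO tumors, the share of high cells ran from 0% to 14.3% with a median of 4.63%, and from 0% to 28.3% with a median of 5.39%. Cells of 1 clone share their origin, and clones were not assigned to a mouse here. The paper reports that mice had no clones in common.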

How the data were processed

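From 5′ libraries (10x kit v2), the authors obtained UMI counts with Cell Ranger multi 6.0.0 and a 10x mouse reference (mm10), and the unnormalized counts of every called barcode were deposited. For tumor TCR libraries they deposited filtered contigs with counts of UMIs per contig. The sample labels give each library's group. Members and lists were chosen with earlier results of these data known.

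Following the study's methods, a barcode was kept where it had between 200 and 6000 detected genes, where mitochondrial genes took no more than 3% and the top gene no more than 20% of its UMIs, and where Cd2, Cd8a and Cd8b1 were all detected. In addition, barcodes with 5 or more of 9 macrophage markers were removed (2 per tumor library, 0 in LN). Doublets were not called. Counts were summed per library (numpy 2.4.6, pandas 2.3.3 and scipy 1.17.1 in Python 3.11.15, with plots by matplotlib 3.10.9). Intervals are Poisson for sums, conditional binomial for ratios and Clopper-Pearson for shares. Those for ratios were tried on counts simulated with counting error only. That trial held no spread between cells or mice and cannot show that the intervals cover it. edgeR 4.0.16 in R 4.3.3 gave TMM factors only. Ranks for a left-out gene used the other 33 members found, not 34 as first planned, and ties were kept. A clone is a set of cells with the same V gene, J gene and CDR3 nucleotides in the productive alpha and beta contigs of most UMIs. Precision follows UMIs: 85 and 389 UMIs of Oasl1 gave an interval of 0.86 to 1.30 on the log2 scale, 10994 and 28265 of Bst2 0.67 to 0.73.

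Every member could be named. Genes outside the list were named where a list holds them, or as the 10 with the highest and 5 with the lowest log2 ratio in top cells, taking the smallest or largest over the 4 libraries. Coordinates are those of RefSeq GRCm38.p6. A gene of the interferon signaling list is not reported here.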

Additional observations from a re-analysis of the deposited data

Results flagged for a closer look

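Opposite directions of CD8-IFNγRKO over control in tumor and LN, with counting intervals that exclude 0 in both tissues, drew attention to 6 of the 32 members tested in both, where 10.5% of 9781 genes met the same rule. The log2 ratio was -0.24 in tumor and 0.47 in LN for Ifit1, 0.19 and -0.20 for Ifit2, 0.09 and -0.43 for Isg20, 0.45 and -0.31 for Oas1a, 0.20 and -0.51 for Zbp1 and 0.16 and -0.09 for Ifi35. With 1 library a group, the difference between tissues was not tested. Ifit1 and Oas1a have close relatives in the annotation, and the split of reads among them is uncertain.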

How the results depend on the processing

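No paired analysis was possible because each group was 1 library. Of 143 alternative values of the main results, 94 stayed within counting error or 1.5 times the count, 48 moved and 1 reversed. Of 310 for single members, 213 stayed, 97 moved and 0 reversed. Those were only the members already past a fold, which were unlikely to reverse. Among all members tested, the sign between genotypes turned with the scaling for 1 in tumors (Parp14) and 0 in LN. Between tissues it turned for 5 members in control and 8 in CD8-IFNγRKO cells. The summed log2 ratio of the genotypes in tumors (0.30) was 0.32 with all barcodes, 0.33 with no requirement of Cd2, Cd8a and Cd8b1, 0.29 without the 8% of barcodes with most UMIs and 0.38 as a mean of each cell's CPM, and in LN (0.05) it was 0.02 with TMM factors. Tumor over LN in control cells (0.19) was 0.21, 0.21, 0.27 and 0.39 in the same order, 0.28 with TMM factors and -0.10, so reversed, with library size without T cell receptor, heat shock, ribosomal and mitochondrial genes. In CD8-IFNγRKO cells (0.44) these were 0.50, 0.51, 0.50, 0.71, 0.55 and 0.18. Members past the fold went from 9 to 1 in tumors at a fold of 1 (6 with 5 CPM added, 7 with TMM factors or without the 8%, 12 by each cell's CPM), from 2 to 1 in LN under each of the first 4 settings and to 0 with 5 CPM added or a fold of 1, and from 7 to 11 between control tissues by each cell's CPM and to 4 with at least 500 UMIs. The share of high cells follows its definition. Thinned to 1000 UMIs it was 1.56% and 2.28% in control and CD8-IFNγRKO tumors and 0.720% and 0.669% in LN, at 3000 UMIs 11.4%, 17.5%, 6.15% and 6.94%, and at 20 or more UMIs 0.797%, 1.22%, 0.281% and 0.284%. It was 3.31%, 4.92% and 1.73% without the most abundant member in the tumors and CD8-IFNγRKO LN, and 7.49% in CD8-IFNγRKO tumors with no requirement of Cd2, Cd8a and Cd8b1. CD8-IFNγRKO tumors had the higher share of the tumors under each of these. The median contrast with a member left out was 1.94, 1.79, 1.67 and 1.84 in the top 10% of cells, 1.98 and 2.02 in tumors thinned to 1000 UMIs and 2.48 in control tumors with no requirement of the CD8 genes. Members under 100 UMIs and the type I interferon genes could not be compared at this depth, and the spread between mice is unknown.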

Other observations

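Several targets that lean to IFNγ were also higher in the cells high for the antiviral members, in both genotypes. Gbp2, a guanylate-binding protein, read 200 CPM in the top 5% of control tumor cells and 60.5 CPM in the others, a log2 ratio of 1.71, and 254 and 45.1 CPM in CD8-IFNγRKO tumors, a ratio of 2.47. Iigp1, an immunity-related GTPase, had ratios of 2.20 and 3.23 in tumors and 1.72 and 2.21 in LN, and Igtp 1.29 and 2.12 in tumors and 1.39 and 1.61 in LN. Irf1 had 0.42 and 0.60 in tumors and 0.18 and 0.17 in LN, and the immunoproteasome subunit Psmb8 0.26 to 0.36 in the 4 libraries. Ifng was no higher in the top tumor cells, with -0.09 and -0.31.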
